A study of Mus musculus with 4 samples.

Results

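A set of 40 genes that drive DNA replication and mitosis was followed in RNA-seq libraries of the mouse cochlea at postnatal day 8. They were taken by name, 40 of the 37239 gene identifiers listed, and comprise 10 genes of origin licensing and the replicative helicase, 4 of the replication clamp and nucleotide supply, 7 cyclin and cyclin-dependent kinase genes, 8 of the mitotic kinases, the spindle checkpoint and the anaphase-promoting complex, 9 of the spindle, kinetochore and cytokinesis, and the proliferation markers Mki67 and Top2a. Wild-type mice (Ikzf2+/+) were set against mutant littermates (Ikzf2cello/cello) that carry the cello allele on both copies of Ikzf2, the gene of the zinc finger transcription factor helios. Each genotype has 2 libraries of dissected cochlea, described as duplicates at the biological level. The labels do not say how many animals a library holds, so p-values measure the spread between these 4 libraries. Depth was 49719984 and 42152616 counted alignments in wild-type replicates 1 and 2, and 42450937 and 47463910 in cello replicates 1 and 2; values are given in that order of libraries. Levels are counts scaled to these totals (CPM), in which 1 read was worth 0.0201 to 0.0237 CPM. Ikzf2 itself measured 22.9 and 18.5 CPM in the wild-type libraries against 17.7 and 16.9 CPM in the cello libraries (log2 fold change -0.24, SE 0.13, adjusted p = 0.545 in limma), which does not check the genotype, because cello is a missense mutation and the transcript can still be made.

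A dividing cell first loads the Mcm2 to Mcm7 helicase onto replication origins with Cdc6 and Cdt1, and geminin (Gmnn) stops a second loading. Cyclin E with Cdk2 and cyclin A then start DNA synthesis, and cyclin B with Cdk1 starts mitosis, which the Plk1 and Aurora kinases, the spindle checkpoint and Cdc20 carry through. Hair cells and most supporting cells of the mammalian organ of Corti leave the cell cycle before birth, and inhibitors such as p27Kip1 (Cdkn1b) hold them there, whereas glia, vessels, bone and blood cells of the surrounding tissue may still divide. In whole tissue, fewer cells of a type and less RNA per cell cannot be told apart.

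The promoters are shown first because they carry the letters by which this programme is usually recognised. E2F factors act at promoters of replication genes, the factor NF-Y binds CCAAT boxes, and the cell cycle genes homology region (CHR) is bound by the MuvB complexes that repress mitotic genes in resting cells and activate them in dividing cells. RefSeq windows of GRCm38.p6 from 250 bases before to 50 bases after a start were found for 33 of the 40 genes (36 windows, since 3 genes have more than 1 start). Both strands were searched for CCAAT, for TTTGAA or TTTAAA (CHR), and for TTTCGCGC, TTTGGCGC or TTTCCCGC (E2F). The E2F letters lay in 6 of 13 windows of replication genes and in 0 of 16 windows of mitosis genes (checkpoint, spindle and cytokinesis), against 1.84% of all 32851 windows. A CCAAT box together with a CHR lay in 13 of 16 windows of mitosis genes and in 4 of 13 of replication genes, against 10.7% of all windows. By themselves, CCAAT lay in 83.3% and the CHR letters in 66.7% of the members' windows, against 37.4% and 27.6% of all windows. These matches describe letters, not binding. The promoters of 6 genes follow as the 150 bases before the more upstream of the RefSeq and GENCODE starts, with every match in capitals; neighbouring matches in Mcm6 overlap. They show the E2F letters of a helicase gene, all 3 kinds of match in Cdk1, rows of CCAAT boxes in Top2a and Ccnb2, and the promoters of Prc1, with the smallest p of the members, and of Plk1, with the highest fold change.
Mcm6 (chr1:128359706-128359855, minus strand): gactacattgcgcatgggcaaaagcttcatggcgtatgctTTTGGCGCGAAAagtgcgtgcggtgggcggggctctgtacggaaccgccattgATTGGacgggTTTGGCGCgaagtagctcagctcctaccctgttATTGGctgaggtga
Cdk1 (chr10:69352939-69353088, minus strand): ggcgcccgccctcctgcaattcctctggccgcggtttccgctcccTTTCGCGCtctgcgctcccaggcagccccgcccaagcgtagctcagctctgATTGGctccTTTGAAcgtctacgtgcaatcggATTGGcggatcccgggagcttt
Top2a (chr11:99024190-99024339, minus strand): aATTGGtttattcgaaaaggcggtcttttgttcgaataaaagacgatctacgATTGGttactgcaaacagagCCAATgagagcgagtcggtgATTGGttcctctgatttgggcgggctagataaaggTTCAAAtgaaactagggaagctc
Ccnb2 (chr9:70421555-70421704, minus strand): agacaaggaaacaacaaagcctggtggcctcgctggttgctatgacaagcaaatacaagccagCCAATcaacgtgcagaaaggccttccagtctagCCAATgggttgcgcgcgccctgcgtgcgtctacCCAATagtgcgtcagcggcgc
Prc1 (chr7:80294300-80294449, plus strand): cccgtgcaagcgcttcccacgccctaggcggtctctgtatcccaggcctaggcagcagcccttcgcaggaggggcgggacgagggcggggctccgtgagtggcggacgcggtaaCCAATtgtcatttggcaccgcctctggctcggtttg
Plk1 (chr7:122159285-122159434, plus strand): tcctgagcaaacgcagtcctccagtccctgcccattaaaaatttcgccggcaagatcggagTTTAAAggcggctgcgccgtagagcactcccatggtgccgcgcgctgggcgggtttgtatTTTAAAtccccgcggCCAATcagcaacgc
Matches in the rest of the window are not shown, among them the CHR matches of Ccnb2 and Prc1.

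All 40 genes were detected in every library and passed the minimum of 1 CPM in 2 libraries, and they stood low. Their mean levels ran from 1.66 CPM (Ccnb1) to 33.9 CPM (Cdk2), with a median of 5.34 CPM, while the median of all 14721 genes tested was 21.1 CPM. The lowest count of reads behind a value was 60, for Cdc6 in cello replicate 2. Per kilobase of merged exons the members' median was 1.32 CPM against 4.59 CPM over the tested genes with a length, and the median member lay at percentile 19.7 of them. Replication genes (median 2.31 CPM per kilobase) stood above mitosis genes (0.870 CPM per kilobase).

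No member passed the test between the genotypes. In the fit of all genes with limma, 0 of the 40 passed an adjusted p of 0.05, with adjusted p from 0.456 to 0.997, and 0% of the 14721 genes did. At an unadjusted p under 0.05 there was 1 member, Prc1, higher in cello, against 10.9% of all genes tested in either direction and 4.42% higher in cello. edgeR and DESeq2 on the recovered reads also called 0 members, with 1 and 0 at an unadjusted p under 0.05, while DESeq2 called 1.32% of all genes and left the adjusted p of Cdc6 and Ccnb1 undefined. The members' log2 fold changes, cello minus wild-type on the log2(CPM + 0.5) scale, ran from -0.15 (Birc5) to 0.39 (Plk1). Their median was 0.11, against -0.03 for all genes, and 32 of the 40 lay above 0, against 43.4% of all genes (34 of 40 against 51.5% with TMM scaling). This lean depended on the replicate 1 libraries, most on that of wild-type. Without wild-type replicate 1, 17 of the 40 lay above 0, against 43.9% of all genes, and the median was -0.03. Without cello replicate 1, 22 of 40 lay above 0, against 46.2% of all genes, and the median was 0.05. Leaving out wild-type replicate 2 or cello replicate 2 gave 34 and 36 of 40, against 41.3% and 42.8%. The sign of 15 members changed under no setting tried. The 95% intervals of 36 members lay wholly between -1 and 1 on that scale, on which the added 0.5 makes the difference of a low gene smaller than its fold in CPM. The upper bound passed 1 for Plk1 (1.18), Ccnb2 (1.06), Mki67 (1.06) and Rrm2 (1.004).

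**Figure D1:**
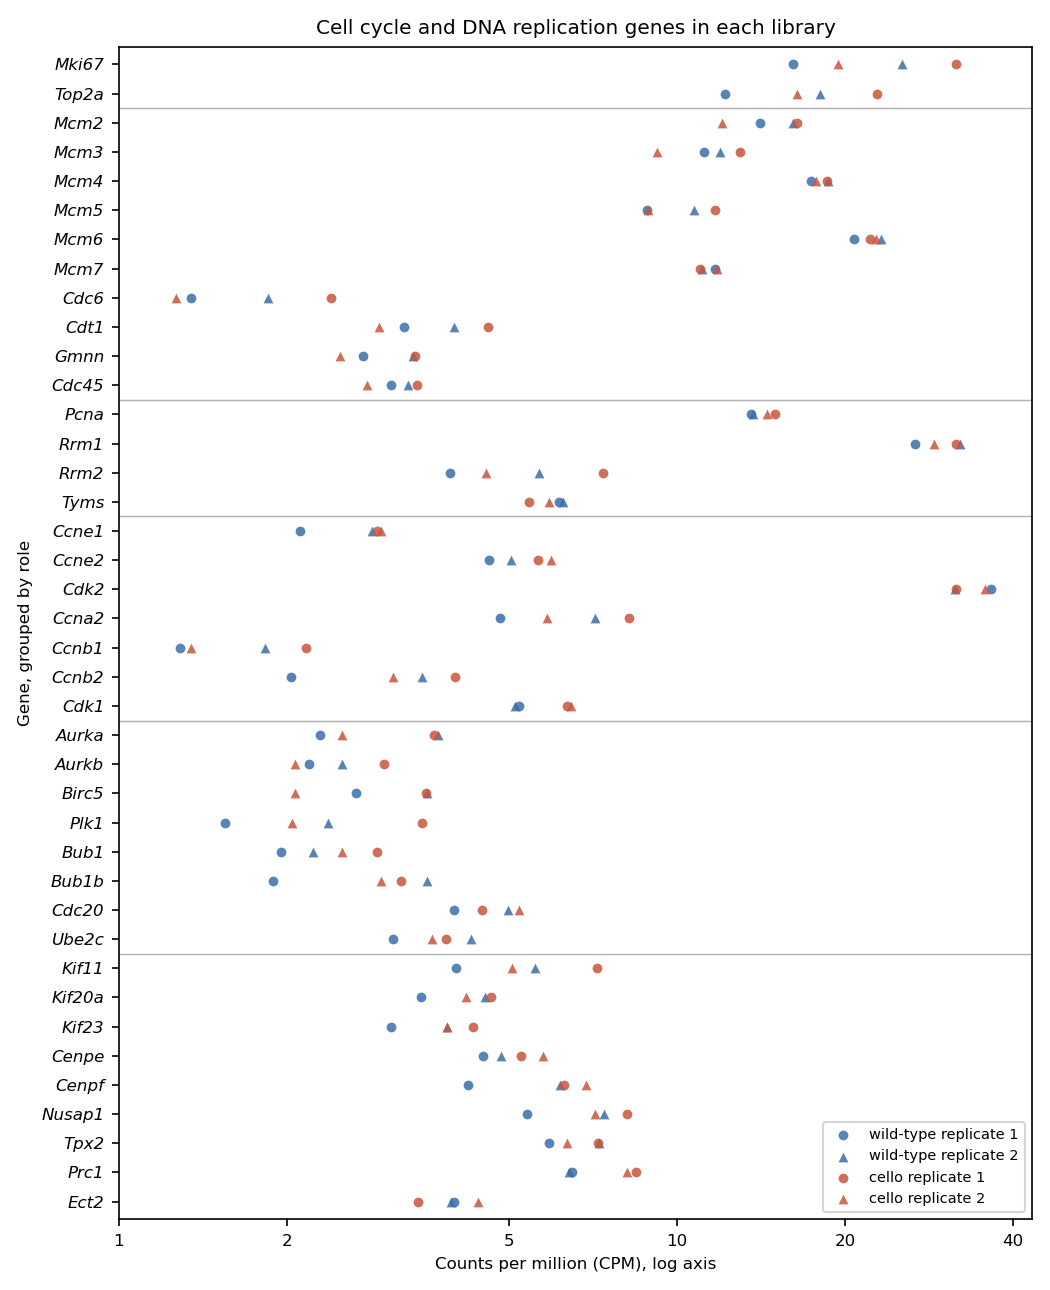
CPM (log axis) of the 40 genes in each library, with lines between the 6 roles; blue marks wild-type and red cello, circles replicate 1 and triangles replicate 2. Wild-type replicate 1 was lowest for 26 genes and cello replicate 1 highest for 22, and the genotypes overlapped for 30.

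Many members shared their lowest or highest library. Wild-type replicate 1 was the lowest library for 26 of the 40, against 18.8% of all genes tested, and cello replicate 1 was the highest for 22, against 23.6%. The median gap between the libraries of a genotype was 0.27 in wild-type and 0.19 in cello on the log2 scale, against 0.11 and 0.16 over all genes. For 33 of the 40 genes the difference between genotypes was smaller than the larger of these gaps, as it was for 68.9% of all genes tested. Groups that did not overlap were found for 10 members. Both cello libraries stood above both wild-type libraries for 9 of the 40, against 16.9% of all genes tested, and below for 1, against 28.7%.

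**Figure D2:**
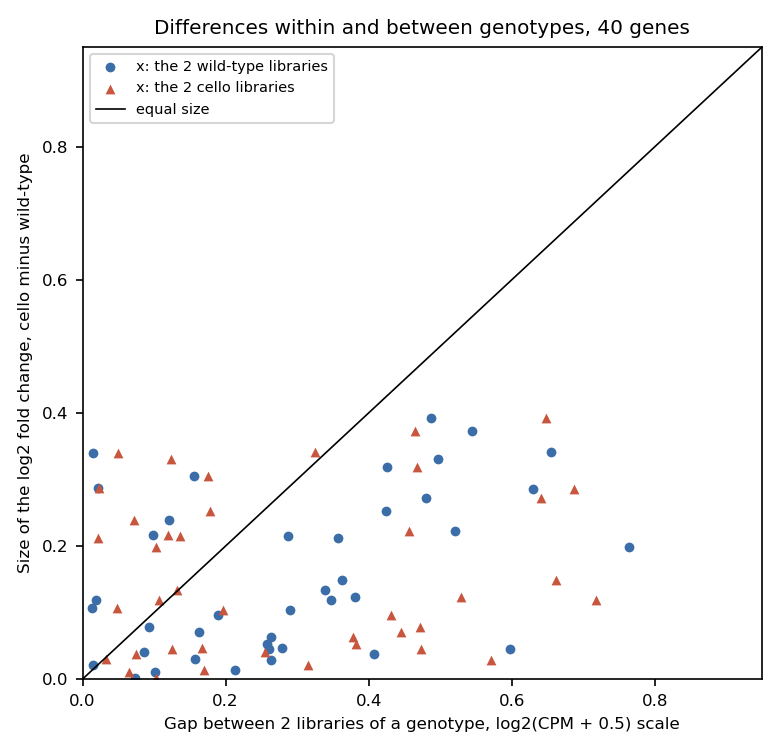
Size of the log2 fold change (y) against the gap between the 2 libraries of a genotype (x) for the 40 genes, both on the log2(CPM + 0.5) scale; blue circles take the wild-type gap and red triangles the cello gap. Most points lie below the line of equal size, and for 33 genes the larger gap exceeds the difference between genotypes.

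By the median gap between replicates per role, the proliferation markers had the widest spread (0.59 in wild-type and 0.58 in cello on the log2 scale), although single genes of other roles, such as Bub1b in wild-type (0.76) and Cdc6 in cello (0.72), had wider gaps. Mki67, a protein that coats mitotic chromosomes (ENSMUSG00000031004, chromosome 7 from 135689784 to 135716361, minus strand), measured 16.2 and 25.3 CPM in the wild-type libraries against 31.6 and 19.4 CPM in the cello libraries. Top2a, the topoisomerase that untangles sister chromatids (ENSMUSG00000020914, chromosome 11 from 98992943 to 99024189, minus strand), measured 12.2 and 18.0 CPM in the wild-type libraries against 22.9 and 16.4 CPM in the cello libraries. For both genes the cello libraries enclosed wild-type replicate 2 and lay above wild-type replicate 1. The log2 fold changes were 0.29 (SE 0.30, adjusted p = 0.744) and 0.37 (SE 0.24, adjusted p = 0.594) in limma. Without wild-type replicate 1 that of Mki67 was -0.03 and that of Top2a 0.10; without cello replicate 1 they were -0.06 and 0.14.

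Genes of origin licensing and the helicase lay closest to 0. Their log2 fold changes ran from -0.10 to 0.12 with a median of 0.01, and groups overlapped for 10 of 10. Of all genes tested, 16.9% had both cello libraries above both wild-type libraries and 28.7% had both below. The median gap between replicates of this role was 0.17 in wild-type and 0.38 in cello, against 0.11 and 0.16 over all genes. Mcm4, the helicase subunit with the highest level per kilobase here (5.04 CPM per kilobase; chromosome 16 from 15623897 to 15637400, minus strand), measured 17.4 and 18.7 CPM in the wild-type libraries against 18.6 and 17.7 CPM in the cello libraries. Its means were 18.0 ± 0.914 and 18.2 ± 0.599 CPM (SD, n = 2) and its log2 fold change was 0.01, with a 95% interval from -0.25 to 0.27. Mcm2 (chromosome 6 from 88883474 to 88898780, minus strand) measured 14.1 and 16.1 CPM in the wild-type libraries against 16.4 and 12.1 CPM in the cello libraries, a log2 fold change of -0.10 (SE 0.18, adjusted p = 0.852). The cello libraries thus lay on both sides of the wild-type values. Mcm6 (0.03), Mcm7 (0.0015), Mcm5 (0.06) and Mcm3 (-0.08) did not pass either, although exons of Mcm7 overlap those of Ap4m1 and Cops6 on the other strand. The loading factors Cdc6 (0.12) and Cdt1 (0.03), geminin (Gmnn, -0.05) and Cdc45 (-0.04), a cofactor of the active helicase, gave adjusted p from 0.899 to 0.971 in limma. Cdc6, Cdt1, Gmnn, Cdc45, Mcm2 and Mcm3 were each lowest in cello replicate 2 and highest in cello replicate 1.

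The replication clamp and the enzymes that supply nucleotides likewise gave no call. Pcna, the sliding clamp of the DNA polymerases (chromosome 2 from 132249162 to 132253314, minus strand), measured 13.6 and 13.7 CPM in the wild-type libraries against 15.0 and 14.5 CPM in the cello libraries. The groups did not overlap, but the log2 fold change was 0.11 (SE 0.11, adjusted p = 0.728). A processed pseudogene, Pcna-ps2, stood at 24.6, 28.0, 28.0 and 24.97 CPM in the same order of libraries. Alignments that were not unique were kept apart from all genes, so reads that match both gene and copy may have gone uncounted. The division of reads between gene and copy is uncertain. So is the level of Pcna, the highest per kilobase among the members (5.91 CPM per kilobase). Tyms, thymidylate synthase, was the member with both cello libraries lower, at 6.15 and 6.24 CPM in wild-type and 5.44 and 5.90 CPM in cello (log2 fold change -0.12, SE 0.14). The ribonucleotide reductase subunits Rrm1 and Rrm2 had log2 fold changes of 0.05 and 0.27 with overlapping groups.

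Among the cyclins and their kinases, Cdk1 had closely matched replicates. Cdk1, the kinase of mitotic entry (ENSMUSG00000019942, chromosome 10 from 69335146 to 69352938, minus strand), measured 5.21 and 5.12 CPM in the wild-type libraries against 6.36 and 6.47 CPM in the cello libraries. Its means were 5.17 ± 0.0601 and 6.41 ± 0.0762 CPM (SD, n = 2), a ratio of 1.22 and a log2 fold change of 0.29 (SE 0.14). It had an unadjusted p of 0.095 and an adjusted p of 0.510 in limma. When any 1 library was left out its fold change kept between 0.28 and 0.30, which restates the small gaps between replicates. Cdk2, the partner of cyclin E and cyclin A, was the most abundant of this role per kilobase (5.44 CPM per kilobase; chromosome 10 from 128697939 to 128705031, minus strand) and measured 36.6 and 31.5 CPM in the wild-type libraries against 31.7 and 35.7 CPM in the cello libraries (log2 fold change -0.01, SE 0.12, but 0.026 with TMM scaling). The cyclin E genes Ccne1 and Ccne2 had both cello libraries above wild-type, with log2 fold changes of 0.21 and 0.24. Ccne1 stood at 2.11 and 2.85 CPM against 2.90 and 2.95 CPM, and Ccne2 at 4.61 and 5.05 CPM against 5.63 and 5.94 CPM. Of the exon bases of Ccne2, 17.4% also belong to Ints8 on the other strand, and 12.5% of those of Ccna2 to Exosc9. Groups overlapped for cyclin A (Ccna2, 0.22) and the B cyclins Ccnb1 (0.12) and Ccnb2 (0.34), each with wild-type replicate 1 lowest and cello replicate 1 highest, and none of the 7 genes passed.

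**Figure D3:**
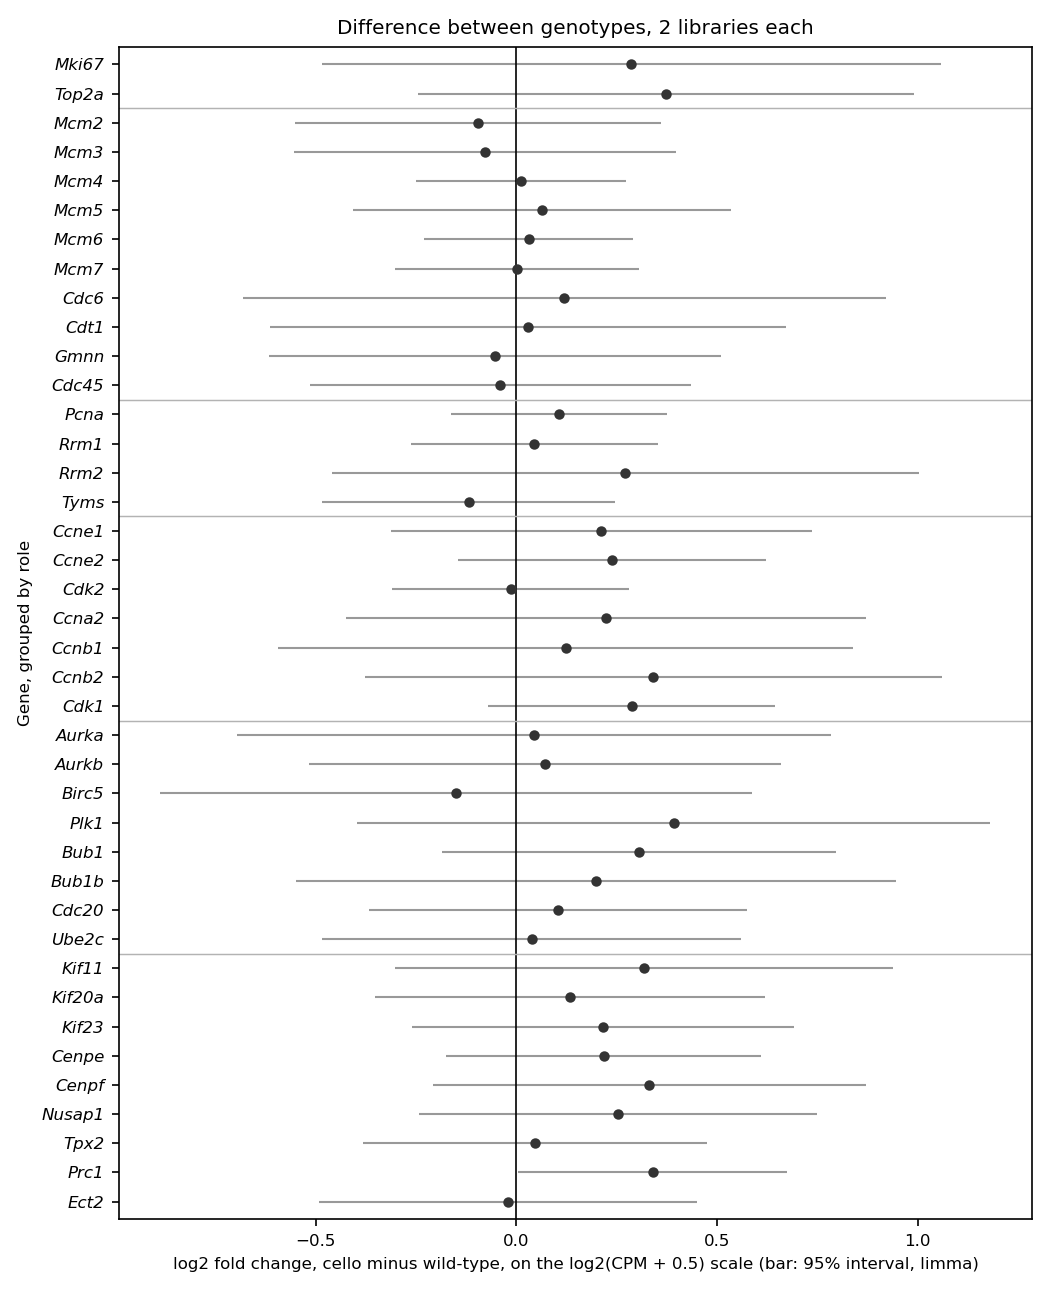
Log2 fold changes of the 40 genes, cello minus wild-type, with 95% intervals from limma (bars), on the log2(CPM + 0.5) scale. The values run from -0.15 to 0.39, and only the interval of Prc1 leaves out 0, before adjustment.

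The mitotic kinases and the checkpoint had a median log2 fold change of 0.09 over 8 genes. Bub1, the checkpoint kinase with the smallest p of these (chromosome 2 from 127801122 to 127831865, minus strand), measured 1.95 and 2.23 CPM in the wild-type libraries against 2.90 and 2.51 CPM in the cello libraries, from 94 to 123 reads per library. The cello libraries lay higher, with a log2 fold change of 0.31 (SE 0.19, adjusted p = 0.585). Cdc20, which activates the anaphase-promoting complex (2.50 CPM per kilobase; chromosome 4 from 118432901 to 118437352, minus strand), measured 3.98 and 4.98 CPM in the wild-type libraries against 4.48 and 5.204 CPM in the cello libraries (log2 fold change 0.10, SE 0.19). Plk1, which drives spindle assembly, stood at 1.55 and 2.37 CPM against 3.49 and 2.04 CPM, so that its 0.39 (SE 0.31) came with overlapping groups. The Aurora kinases Aurka (0.04) and Aurkb (0.07), survivin (Birc5, -0.15), which works with Aurora B in the chromosomal passenger complex, the checkpoint gene Bub1b (0.20) and the ubiquitin-conjugating enzyme Ube2c (0.04) overlapped between genotypes.

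The spindle and cytokinesis genes included the member with the smallest p. Prc1, which bundles the microtubules of the central spindle (ENSMUSG00000038943, chromosome 7 from 80294450 to 80316259, plus strand), measured 6.48 and 6.41 CPM in the wild-type libraries against 8.43 and 8.13 CPM in the cello libraries. Both cello libraries lay above both wild-type libraries, with means of 6.44 ± 0.0502 and 8.28 ± 0.213 CPM (SD, n = 2), a ratio of 1.27. Its log2 fold change was 0.34 (SE 0.13), with an unadjusted p of 0.048 and an adjusted p of 0.456 in limma. It kept between 0.31 and 0.36 when any 1 library was left out, a range set by the small gaps between replicates and no separate evidence. Rccd1 on the other strand shares 11.1% of its exon bases. Nusap1, a microtubule-bundling protein (1.73 CPM per kilobase; chromosome 2 from 119618298 to 119651244, plus strand), measured 5.39 and 7.40 CPM in the wild-type libraries against 8.15 and 7.14 CPM in the cello libraries (log2 fold change 0.25, SE 0.19). Its groups overlapped. The kinetochore genes Cenpe (0.22) and Cenpf (0.33) and the kinesin gene Kif23 (0.22) had both cello libraries above wild-type, the last by a margin of 3.88 over 3.87 CPM. The spindle motor Kif11 (0.32), Kif20a (0.13), which shares 29.3% of its exon bases with Cdc23, the spindle factor Tpx2 (0.05) and Ect2 (-0.02, but 0.015 with TMM scaling), the exchange factor that starts the cleavage furrow, overlapped, and 0 of the 9 genes passed. The median of the 17 mitosis genes was 0.20 and that of the 14 replication genes 0.02, a difference that was not tested. Without wild-type replicate 1 these medians were -0.01 and -0.08.

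Further genes of the programme gave no call either. Of 41 other replication genes tested 0 passed and 25 lay above 0, with a median of 0.05; the smallest p belonged to the origin recognition subunit Orc3 (0.17), to Rpa1, of the single-strand binding protein (-0.17), and to Dtl (0.44). Of 39 other mitosis genes 0 passed and 32 lay above 0, against 43.4% of all genes tested, with a median of 0.14. Wild-type replicate 1 was the lowest library for 25 of these 39 and cello replicate 1 the highest for 22. Anln, the cleavage furrow protein anillin, measured 6.26 and 6.45 CPM in the wild-type libraries against 8.999 and 8.43 CPM in the cello libraries (log2 fold change 0.43, SE 0.13, adjusted p = 0.437 in limma). The kinesin gene Kif15 (0.55) and the cytokinesis kinase gene Cit (0.32) followed. All 3, picked for their small p, had both cello libraries above both wild-type libraries. Over the whole list 11 of the 39 did, against 16.9% of all genes tested.

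Several inhibitors of the cycle, and genes of its G1 entry, stood above all 40 members in level. Per kilobase the cyclin-dependent kinase inhibitor genes Cdkn1c, Cdkn1a and Cdkn1b were at 144 CPM, 43.7 CPM and 40.6 CPM, and the G1 genes Cdk4 and Ccnd1 at 33.1 CPM and 12.0 CPM, against 0.328 to 5.91 CPM in the 40 members. Cdkn1c, which encodes p57, measured 322 and 326 CPM in the wild-type libraries against 240 and 290 CPM in the cello libraries (log2 fold change -0.30, SE 0.12, adjusted p = 0.459 in limma). The log2 fold change of Cdkn1b was -0.09 and that of Cdkn1a, the p53 target p21, -0.08, both with overlapping groups, while Cdkn2d (-0.15) and Cdkn2c (0.24) did not overlap. Of the G1 list 0 of 6 genes passed and 5 lay below 0, against 56.6% of all genes tested. Cello replicate 1 was the lowest library for 5 of the 6. The list's relative medians were 0.08 and 0.07 in wild-type and -0.17 and 0.07 in cello. Ccnd3, a D-type cyclin, had the smallest p, at 70.4 and 73.7 CPM in wild-type and 58.5 and 58.7 CPM in cello (log2 fold change -0.29, SE 0.07, unadjusted p = 0.0097, adjusted p = 0.419 in limma). Cdk4 (-0.21) and Ccnd1 (-0.23) were low in 1 library: Ccnd1 measured 60.2 and 59.5 CPM in the wild-type libraries against 37.5 and 69.5 CPM in the cello libraries. Among the pocket proteins and transcription factors 0 of 18 passed, with a median of 0.03; the log2 fold change of Rb1 stood at 0.14, Tfdp2 at 0.13, E2f6 at -0.12, Foxm1 at 0.19 and E2f1 at 0.03.

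**Figure D4:**
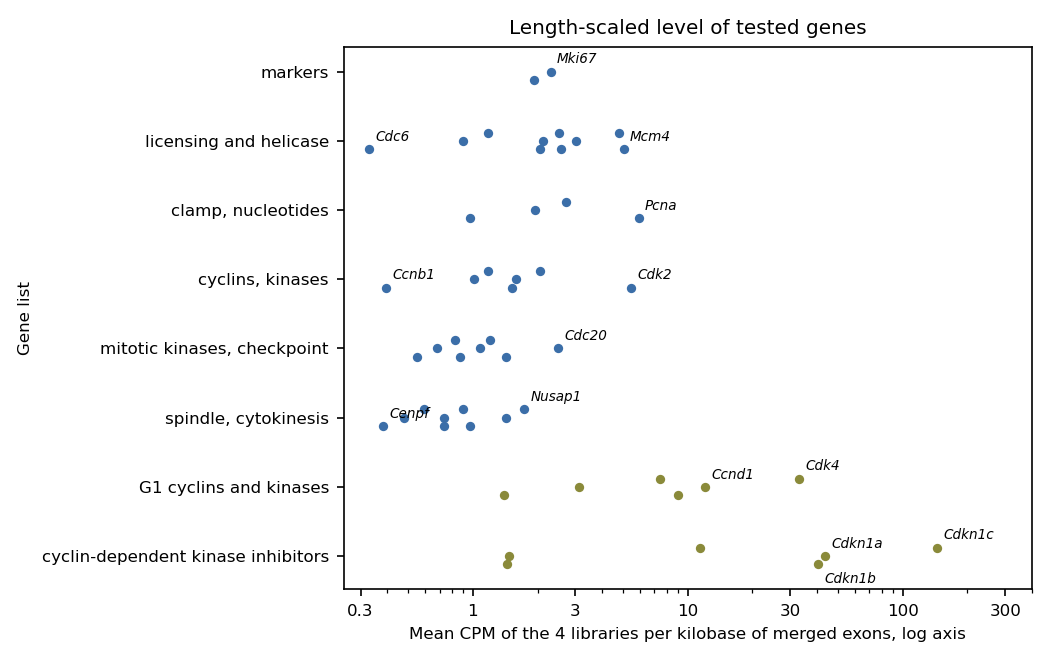
Mean CPM of the 4 libraries per kilobase of merged exons (log axis) for the tested genes, 1 point a gene, with the members in blue by role and 2 further lists in olive; vertical offsets within a list only separate the points. Members lie between 0.328 and 5.91, below Cdk4, Cdkn1a, Cdkn1b and Cdkn1c.

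Markers of other cells differed between the same libraries. The median level of the 40 members, as log2(CPM + 0.5) less its average over the libraries, was -0.17 and 0.09 in wild-type and 0.17 and -0.02 in cello. Erythroid genes (10 of 10 tested) stood at -0.62 and 0.44 in wild-type and 0.79 and -0.22 in cello on that scale, and granulocyte genes (8 of 11 tested) at -0.38, 0.39, 1.08 and -0.94. The summed granulocyte level was 21.9 and 46.4 CPM in wild-type and 94.6 and 9.69 CPM in cello, and of their defining markers Ctsg had 0 reads in cello replicate 2. The summed erythroid level, mostly haemoglobin, was 636 and 1409 CPM in wild-type and 1027 and 1201 CPM in cello. Klf1, a transcription factor of red cell precursors, measured 0.784 and 1.30 CPM in the wild-type libraries against 3.09 and 0.716 CPM in the cello libraries. Osteoclast genes (5 of 6 tested) summed to 180 and 175 CPM in wild-type and 431 and 157 CPM in cello. Schwann cell and myelin genes (10 of 10 tested) summed to 1258 and 2873 CPM in wild-type and 4118 and 4982 CPM in cello, and spiral ganglion neuron genes (8 of 8 tested) to 296 and 555 CPM in wild-type and 640 and 771 CPM in cello. Sox10 of the Schwann cell list (log2 fold change -0.12) and Gata3 of the neuron list (-0.45) lay below 0. Bone-forming cell genes (10 of 10 tested) had relative medians of -0.01 and -0.14 in wild-type against 1.03 and -0.72 in cello; cello replicate 1 was the highest library for all 10. Endothelial genes (8 of 8 tested) had relative medians of -0.06 and -0.08 in wild-type against 0.41 and -0.24 in cello, with the same library highest for all 8. B cell precursor genes (3 of 8 tested) were at -0.20, 0.05, 0.86 and -0.59 on that scale, cartilage genes (8 of 8 tested) at -0.10, 0.03, 0.28 and -0.09, and fibrocyte genes (6 of 6 tested) at -0.03, -0.20, 0.27 and -0.19. Medians and sums of a list take all its genes, also those too low to be tested, which were most of the B cell precursor genes. By these medians wild-type replicate 1 was the lowest library for the members and for the erythroid, Schwann cell, neuron and cartilage genes. Cello replicate 1 was the highest for the members and for the erythroid, granulocyte, osteoclast, bone, endothelial, B cell precursor, cartilage and fibrocyte genes. The same library was the lowest for supporting cell genes (6 of 7 tested), at 0.21, 0.26, -0.25 and -0.08 on that scale. It was also the lowest for stria vascularis genes (6 of 6 tested), at 0.13, 0.27, -0.23 and -0.18. Macrophage genes (7 of 7 tested) stayed between -0.03 and 0.06. The part of any of these cells in the members' levels was not tested. Of 8 hair cell markers 8 were tested, with relative medians of 0.40 and 0.42 in wild-type and -0.36 and -0.44 in cello. Both cello libraries lay below both wild-type libraries for 6 of the 8, against 28.7% of all genes tested. Groups overlapped for the other markers, Myo7a (log2 fold change 0.04) and Otof (0.03).

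**Figure D5:**
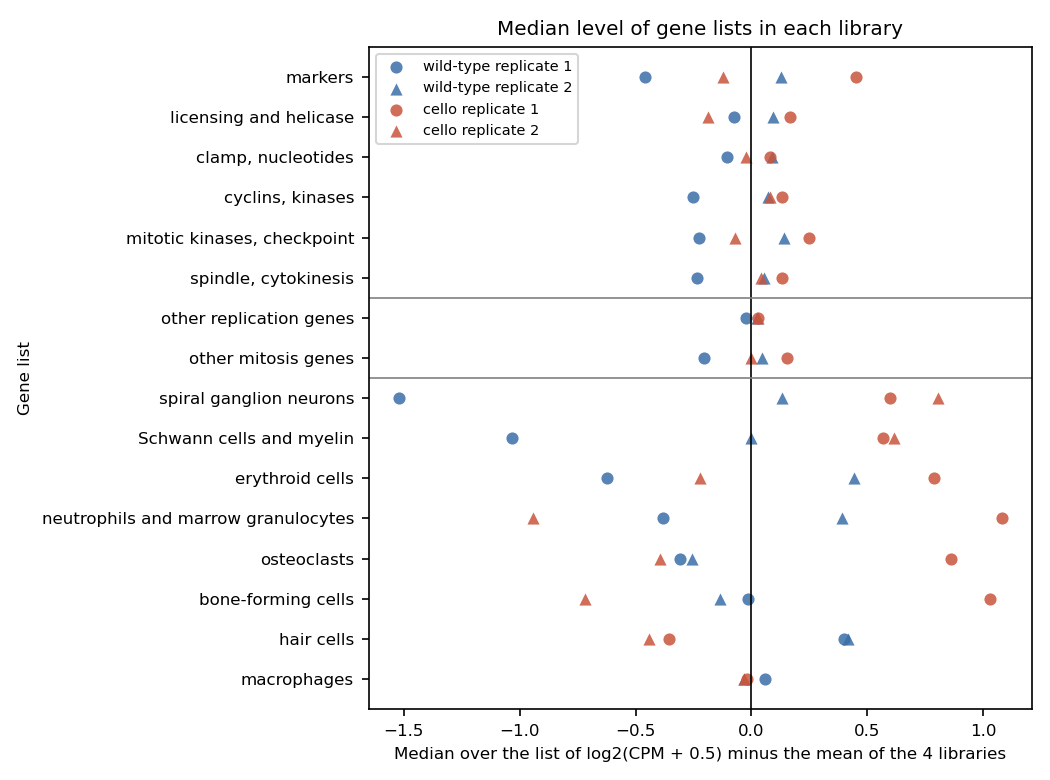
Median over each gene list of log2(CPM + 0.5) minus the mean of the 4 libraries, per library; the top block holds the 6 roles of the 40 genes, the middle block the other cell cycle lists and the bottom block markers of other cells. The erythroid median runs from -0.62 in wild-type replicate 1 to 0.79 in cello replicate 1, the same lowest and highest library as for the median of the 40 members (-0.17 and 0.17). Single genes varied: wild-type replicate 1 was lowest for 26 of the 40 members and 5 of the 10 erythroid genes. Cello replicate 1 was highest for 22 and 6 of them.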

How the data were processed

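RNA of dissected cochlea was sequenced from TruSeq libraries, per the labels. Deposited values are CPM per gene, and the submitters' processing notes name TopHat and GRCm38. The counter, its strand setting and the annotation were not stated in the labels or files. The authors' CPM are relative to every counted alignment. In each file 5 entries name no gene and stayed out of the tests, leaving 70.0% to 72.8% of alignments in genes. Among these entries were ambiguous alignments (3.40% to 3.53%) and alignments that were not unique (13.0% to 14.6%). Reads of members that share exons or have pseudogenes may therefore have gone uncounted. With the strand setting unknown, how many reads of shared exons were set aside is not known. Of the values, 100% were whole multiples of 1 read (tolerance 0.001 of a read), and these reads went into edgeR 4.0.16 and DESeq2 1.42.0, which called 0 and 195 genes; DESeq2 left 1142 adjusted p undefined. Symbols and positions came from the GENCODE annotation of GRCm38 (36504 of 37239 identifiers matched). A level per kilobase is CPM over merged exon length.

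The main fit kept genes at 1 CPM or more in 2 or more libraries and modelled log2(CPM + 0.5) on genotype with limma 3.58.1 under R 4.3.3 (variance trend). Its two-sided p-values were adjusted by Benjamini-Hochberg over 14721 genes, with a threshold of 0.05. Fold changes on this scale understate changes of low genes. With 2 libraries against 2, exact permutation reaches p = 0.333 at best and was not used. The fits were also run on simulated counts, in which genes varied independently and with the same dispersion. That run therefore says nothing on shifts that many genes of a library share. Summaries were made with pandas 2.3.3 and plots with matplotlib 3.10.9 (Python 3.11.15).

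The members and lists were chosen with earlier results of these data known. Given with every library and a fold change are Mki67, Top2a and, per role, the genes with the highest level per kilobase and the smallest p. Named from other lists are up to 3 genes with the smallest p, and Cdkn1a, Cdkn1b, Cdkn1c, Rb1, Ccnd1, E2f1 and Foxm1. Most of these have the log2 fold change alone. Tyms, Ccne1, Ccne2, Plk1, Pcna-ps2 and Klf1, and the 6 promoters, were picked after their values were seen. Other settings tried were a pseudocount of 0.1 or 1; no filter or a mean of 5 CPM; TMM, median-of-ratios and quantile scaling; leaving haemoglobin and mitochondrial genes out of the totals; limma robust or without trend; a replicate block; edgeR; DESeq2; and each library left out. CPM over reads in genes was added after seeing the data.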

Additional observations from a re-analysis of the deposited data

How the results depend on the processing

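Under all 18 other settings 0 members passed, with the lowest adjusted p of a member at 0.311 (limma, without cello replicate 2). The members' median log2 fold change ran from 0.06 (quantile normalization) to 0.17 (edgeR) while all libraries were kept, and from -0.03 to 0.27 when a library was left out, where the lone library of a genotype is assumed to vary like the others. That of replication genes ran from -0.096 to 0.13 and that of mitosis genes from -0.011 (without wild-type replicate 1) to 0.33 when a library was left out. Over all genes DESeq2 called 115 higher and 80 lower, and leaving out a library gave 0 to 90 higher (90 without wild-type replicate 2) and 0 lower. The replicate numbers share no stated litter or day, and same-numbered libraries deviated together at r = 0.13 over 14721 genes. With the replicate block 0 genes and 0 members were called and the members' median was 0.11. Under the other scalings and count tests 28 to 35 of 40 members lay above 0, and the median of all genes moved by less than 0.05. The genes whose sign changed lay near 0. They were Cdk2 (0.026 with TMM, 0.024 with median-of-ratios, 0.012 with quantile normalization, 0.017 with haemoglobin and mitochondrial genes left out, 0.014 with totals over reads in genes, 0.024 with edgeR, 0.022 with DESeq2), Ect2 (0.015 with TMM, 0.013 with median-of-ratios, 0.0070 with haemoglobin and mitochondrial genes left out, 0.0042 with totals over reads in genes, 0.027 with edgeR, 0.025 with DESeq2), Cdc45 (1.3e-04 with edgeR) and, with quantile normalization, Aurka (-0.026), Cdt1 (-0.032), Mcm7 (-0.0095), Tpx2 (-0.010) and Ube2c (-0.047). When a library was left out, 25 members changed sign, with these ranges: Aurka -0.25 to 0.34, Aurkb -0.15 to 0.29, Birc5 -0.48 to 0.18, Bub1b -0.18 to 0.58, Ccna2 -0.037 to 0.48, Ccnb1 -0.14 to 0.39, Cdc20 -0.041 to 0.25, Cdc45 -0.17 to 0.087, Cdc6 -0.24 to 0.48, Cdk2 -0.12 to 0.092, Cdt1 -0.26 to 0.31, Ect2 -0.18 to 0.14, Gmnn -0.24 to 0.14, Kif20a -0.035 to 0.30, Mcm2 -0.31 to 0.12, Mcm3 -0.31 to 0.16, Mcm4 -0.039 to 0.062, Mcm5 -0.13 to 0.25, Mcm6 -0.048 to 0.11, Mcm7 -0.050 to 0.053, Mki67 -0.057 to 0.63, Rrm1 -0.085 to 0.18, Rrm2 -0.048 to 0.59, Tpx2 -0.093 to 0.19, Ube2c -0.17 to 0.24. The cause was not tested. The lowest members rest on 60 to 102 reads a library, and 2 libraries per genotype limit the precision: the 95% intervals span 0.26 to 0.80 to either side.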
